A study of Mus musculus with 6 samples.

Results

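Chemokines are small secreted proteins that steer leukocytes, and chemokine receptors are the membrane proteins that bind them. Of 63 mouse genes whose symbol is Ccl, Cxcl, Ccr, Cxcr or Ackr with a number, or is Xcl1, Xcr1, Cx3cl1 or Cx3cr1, 46 had an intact row in all 6 tables, out of 19065 gene symbols kept in all. These were 28 of 40 ligands and 18 of 23 receptors. The 6 libraries were RNA from 3 old and 3 young C57/BL6 mice, each library from a separate mouse, all with acid injury and all labelled as lung vascular endothelial cells. The extraction protocol speaks of homogenised tissue and of no step that isolates cells, and the labels state neither age in months, sex nor time since injury. An uninjured group was not analysed here, so the comparison is old against young after injury. The members and the lists used here were chosen by symbol and function with earlier results of these data known.

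In the textbook scheme, CXC chemokines with an ELR motif act on CXCR2 and draw neutrophils, while CC chemokines act mainly on monocytes, eosinophils and lymphocytes. Most ligands share receptors, and most receptors take several ligands. The atypical receptors (Ackr genes) bind chemokines without the usual G protein signal and transport, hold or clear them. In blood vessels, ACKR1 is typical of venules, where it carries chemokines across the endothelium, and ACKR2 and the ligand CCL21 are typical of lymphatic endothelium.

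Each library held 11381122 to 17931463 fragments, as implied by its smallest value steps. Of the 10030 genes with a mean of at least 1 FPKM (fragments scaled by gene length and library total), limma called 498 at a Benjamini-Hochberg adjusted p of 0.05, which is 4.97%. The endothelial label was checked with 10 endothelial markers, which summed to 58.8, 194 and 197 FPKM in old mice 1, 2 and 3, against 1555, 1025 and 609 FPKM in young mice 1, 2 and 3. None of these markers was at 0 in any library, and 7 of the 10 were called lower in old mice. Among them Pecam1, an adhesion molecule of endothelial junctions, had 3.73 to 7.90 FPKM across the old libraries and 40.0 to 111 FPKM across the young ones. Markers of fibroblasts, 5 genes, summed to 1829 to 4260 FPKM in old against 103 to 203 FPKM in young libraries. The young group was itself split, because 6 neutrophil markers summed to 53.1 FPKM in young mouse 1 and to 23742 and 24062 FPKM in young mice 2 and 3, with 321 to 909 FPKM in old libraries. Epithelial and mesothelial markers were called higher in old mice for 3 of 4 genes each. In bulk RNA, fewer cells of a type and less RNA per cell cannot be told apart, and this holds for every result given here.

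**Figure D1:**
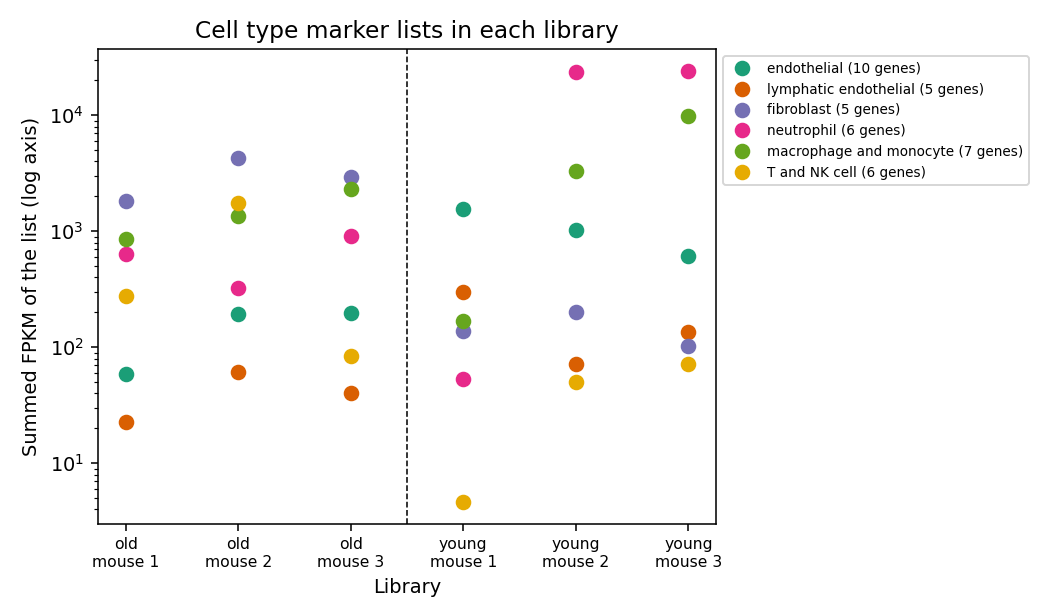
Summed FPKM (log axis) of 6 lists of cell type markers in each library, old mice left of the dashed line and young mice right of it, with 1 point per list and library. The endothelial sum was lower and the fibroblast sum higher in all 3 old libraries than in any young library, and young mouse 1 had the lowest neutrophil, macrophage and T cell sums.

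Across the chemokine system, 2 genes passed the test. The ligand Ccl11 rose and the atypical receptor Ackr1 fell in old mice. Of the 24 ligands tested, 1 was called higher and 0 lower, while 2.94% of all genes were called higher and 2.02% lower. Of the 11 receptors tested, 0 were called higher and 1 lower. The share of tested members called, 5.71%, was close to the 4.97% of all genes. At an unadjusted p under 0.05 there were 4 ligands and 3 receptors, or 7 of 35, against 23.2% of all genes. The standard error of the log2 fold change had a median of 0.72 over the members tested and 0.32 over all genes, so the members varied more between libraries of a group than most genes did.

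**Figure D2:**
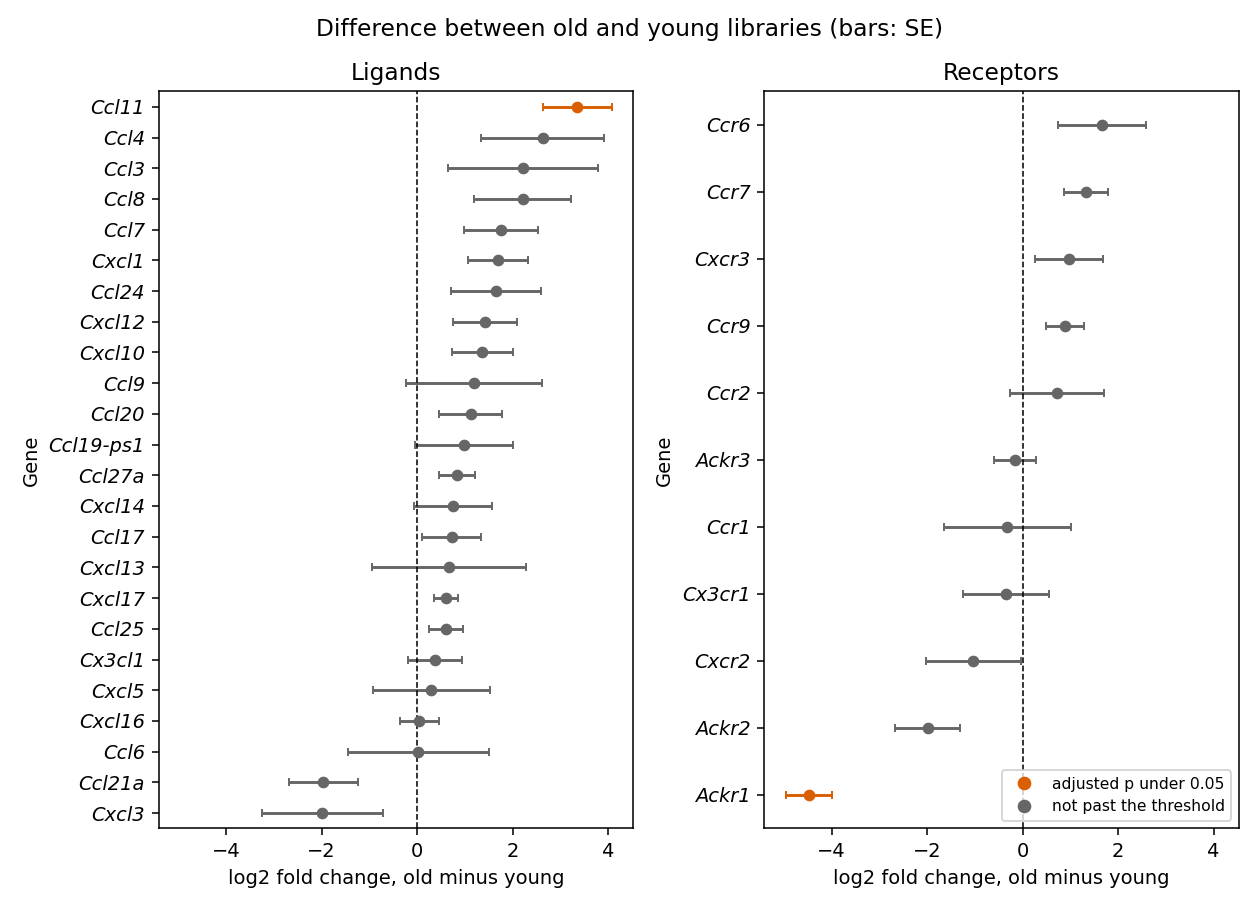
Log2 fold change (old minus young, on log2(FPKM + 1)) with its SE for the 24 ligands and 11 receptors tested, orange where the limma adjusted p was under 0.05. Ccl11 lies at 3.36 and Ackr1 at -4.48, and the bars of many other members cross or approach 0.

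Most tested ligands had a higher mean on the log2(FPKM + 1) scale in old mice without passing the test. The log2 fold change was above 0 for 22 of 24 ligands (91.7%) and 5 of 11 receptors (45.5%), against 49.2% of all genes. The median was 0.91 over the ligands, -0.15 over the receptors and -0.01 over all genes. The ligand count depended on single libraries of both groups. Young mouse 1 was the lowest of the 6 libraries for 18 of 24 ligands and 6 of 11 receptors. This was 68.6% of the 35 members, against 22.8% of all genes. Without young mouse 1, the log2 fold change was above 0 for 18 of 24 ligands with a median of 0.37, and with young mouse 1 as the only young library the median was 2.21. Old mouse 2 was the highest library for 9 of 24 ligands. Without it the count was also 18 of 24, with a median of 0.56. The receptor median was not stable in sign. It was -0.41 without young mouse 1 (4 of 11 receptors above 0) and 0.74 without young mouse 3 (7 of 11). With a pseudocount of 0.1 the receptor median was 0.09, and with young mouse 1 as the only young library it was 1.5. Groups did not overlap for 5 of 35 members, namely Ccl11, Cxcl17 and Ccr9, which were higher in old mice, and Ackr1 and Ackr2, which were lower, a share of 14.3% beside 31.2% of all genes.

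Ccl11 encodes eotaxin, a ligand of CCR3 that attracts eosinophils. It had 36.8, 129 and 180.5 FPKM in the libraries of old mice 1, 2 and 3, against 3.18, 10.8 and 15.7 FPKM in those of young mice 1, 2 and 3. Every old library was above every young library, and the old mean of 115.5 ± 72.8 FPKM stood against a young mean of 9.88 ± 6.30 FPKM (SD, n = 3 each). The log2 fold change was 3.36 ± 0.72 (SE, limma adjusted p = 0.0499). This value lies at the threshold, and the call ended in 10 of 17 alternatives (limma adjusted p 0.0214 to 0.141 over all 17), as when leaving out old mouse 2 (0.131), old mouse 3 (0.141), young mouse 1 (0.0956), young mouse 2 (0.0835) or young mouse 3 (0.072). The fibroblast markers moved with it (5 of 5 called higher in old mice, against 2.94% of all genes), and their part in the result was not tested. The receptor Ccr3 had 0 to 0.537 FPKM across the old libraries and 0.0345 to 0.472 FPKM across the young ones, from 67 fragments in all, and was under the filter.

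The other ligands of the eosinophil and type 2 group did not pass. Ccl24, a further CCR3 ligand made by macrophages, had 8.47, 16.9 and 51.1 FPKM in the libraries of old mice 1, 2 and 3, against 1.00, 5.72 and 19.95 FPKM in those of young mice 1, 2 and 3. The groups overlapped, since young mouse 3 lay above old mice 1 and 2 (log2 fold change 1.66 ± 0.94, limma adjusted p = 0.335). Ccl17, a CCR4 ligand of dendritic cells, had 0.590 to 5.31 FPKM across the old libraries and 0 to 2.26 FPKM across the young ones on 80 fragments in all. Of 5 eosinophil markers 1 reached the filter, and the list summed to 485, 10.5 and 61.9 FPKM in old mice 1, 2 and 3, against 0.619, 4.83 and 1.64 FPKM in those of young mice 1, 2 and 3. The sum in old mouse 1 was almost wholly Prg2, an eosinophil granule protein, at 483 FPKM, while Ccr3 was at 0 in that library. Ccl22 and Ccl1 were under the filter, Ccl22 with means of 0.183 FPKM across old and 0.0912 FPKM across young mice and Ccl1 with means of 0.232 FPKM across old and 0.0283 FPKM across young mice. In a separate list of NF-kB feedback genes and cytokine inducers, 1 of 8 tested genes was called higher in old mice, 0 lower and 7 were not called. Over all genes, 2.94% were called higher and 2.02% lower. The called gene of the list was Il4, a type 2 cytokine, with 12.5 to 21.8 FPKM across the old libraries and 0.322 to 2.84 FPKM across the young ones (log2 fold change 2.77 ± 0.46, limma adjusted p = 0.0247).

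Ccl11 lies in a cluster of CC chemokine genes on chromosome 11, given here with the coordinates of GENCODE M21 on GRCm38. Ccl7 spans 82045712 to 82047525, Ccl11 82057823 to 82062955 and Ccl8 82115185 to 82116799. Ccl7, a monocyte attractant acting on CCR2, had 97.0, 172 and 524 FPKM in the libraries of old mice 1, 2 and 3, against 24.8, 69.2 and 125 FPKM in those of young mice 1, 2 and 3. Only young mouse 3 reached the range of the old libraries, above old mouse 1, and the gene did not pass (log2 fold change 1.76 ± 0.77, limma adjusted p = 0.232). Ccl8, a CCR8 ligand in the mouse, had 2.96, 56.7 and 13.8 FPKM in the libraries of old mice 1, 2 and 3, against 0.331, 3.03 and 5.38 FPKM in those of young mice 1, 2 and 3. Old mouse 2 was far above the rest, old mouse 1 lay below young mice 2 and 3, and the log2 fold change was 2.21 ± 1.01 (limma adjusted p = 0.247). The old means exceeded the young means for these 3 genes, while among them the call was made for Ccl11 alone. This direction was not particular to the cluster, since the log2 fold change was above 0 for 22 of 24 ligands tested (91.7%). Ccl1, at 82176657 to 82305690 on the same chromosome, was under the filter. Ligands without an intact row, among them Ccl2 and Ccl12, could not be compared.

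The ligands with the highest mean over all 6 libraries were Ccl4 and Ccl3, the macrophage inflammatory proteins 1-beta and 1-alpha, which attract monocytes and T cells. Ccl4 had 2458, 847 and 1849 FPKM in the libraries of old mice 1, 2 and 3, against 26.6, 644 and 905 FPKM in those of young mice 1, 2 and 3. Ccl3, a ligand of CCR1, had 811, 494 and 980 FPKM in the libraries of old mice 1, 2 and 3, against 8.62, 557 and 720 FPKM in those of young mice 1, 2 and 3. For both genes young mice 2 and 3 lay near the lower end of the old range or within it, and young mouse 1 was far below all others. Ccl4 was the highest ligand in all old libraries and in young mouse 2, while Ccl21a was highest in young mouse 1 and Ccl6 in young mouse 3. Ccl3 and Ccl4 together made up 48.6% to 80.4% of the summed ligand FPKM in old libraries, against 7.82% in young mouse 1 and 38.8% to 41.3% in young mice 2 and 3. Neither gene passed, with log2 fold changes of 2.63 ± 1.29 for Ccl4 (limma adjusted p = 0.273) and 2.22 ± 1.57 for Ccl3 (limma adjusted p = 0.425).

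Ccl6 and Ccl9, myeloid CC chemokines that act on CCR1, had both their lowest and their highest level among the young libraries. Ccl6 had 125, 229 and 479 FPKM in the libraries of old mice 1, 2 and 3, against 18.4, 519 and 1307 FPKM in those of young mice 1, 2 and 3. Ccl9 had 83.1, 35.7 and 106 FPKM in the libraries of old mice 1, 2 and 3, against 1.67, 63.8 and 158 FPKM in those of young mice 1, 2 and 3. In both cases young mouse 1 was lowest and young mouse 3 highest, and the old values lay between them. The log2 fold changes were 0.03 ± 1.48 for Ccl6 and 1.19 ± 1.42 for Ccl9 (limma adjusted p = 0.994 and 0.641), and without young mouse 1 they were -1.78 and -0.56. The sum of 7 macrophage and monocyte markers had the same lowest and highest libraries, with 863 to 2298 FPKM in old libraries, against 170 FPKM in young mouse 1 and 3317 and 9849 FPKM in young mice 2 and 3. Lyz2 made up most of that sum in every library except young mouse 1, and single markers had other orders, since Mrc1 was highest in young mouse 1 at 83.4 FPKM and Marco in young mouse 2 at 76.3 FPKM. The part of these cells in the Ccl6 and Ccl9 values was not tested.

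**Figure D3:**
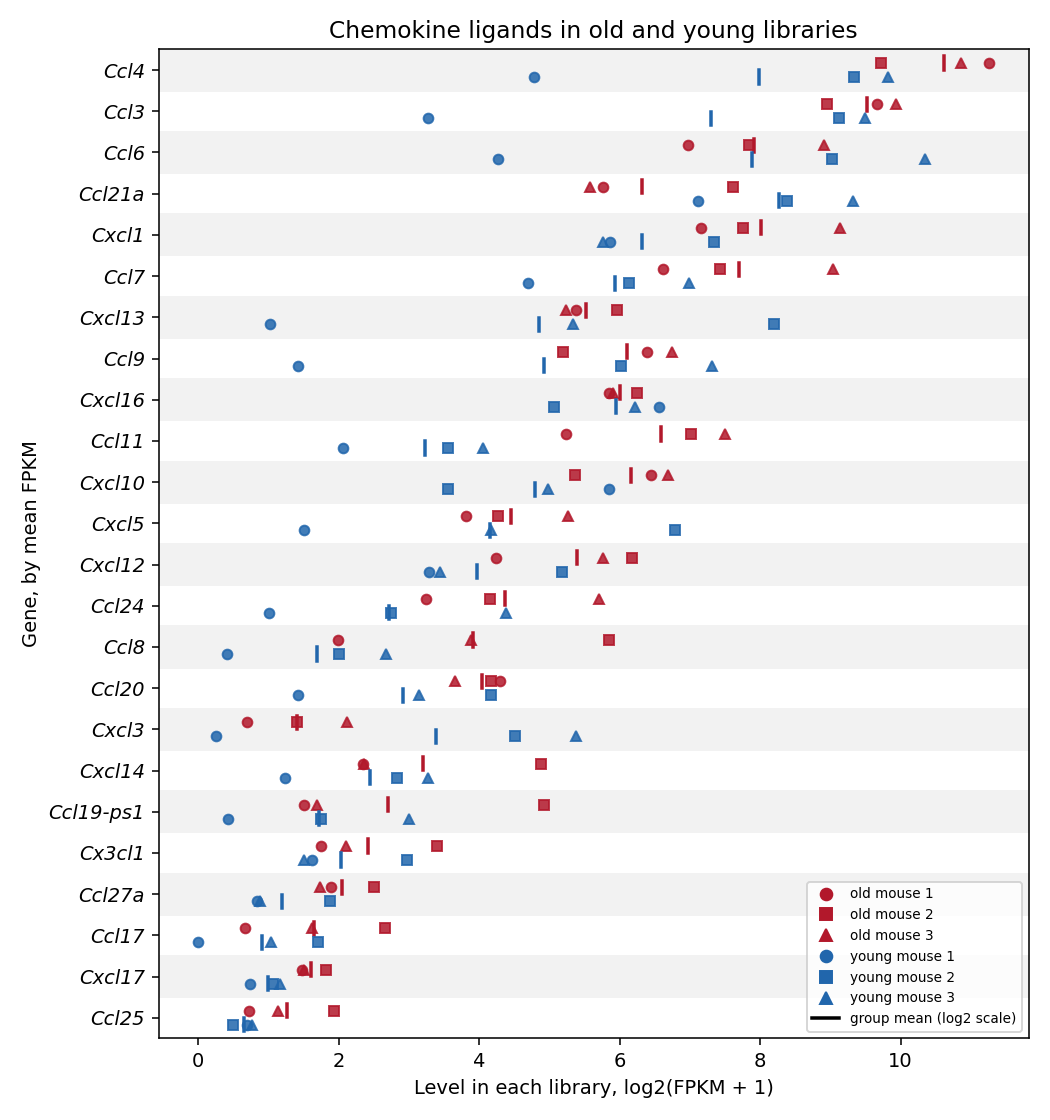
Level of each of the 24 tested ligands on log2(FPKM + 1) in the 3 old (red) and 3 young (blue) libraries, with 1 symbol shape per mouse number and a bar at each group mean. Young mouse 1 (blue circle) is the lowest point for 18 ligands, and Ccl11 and Cxcl17 are the ligands whose old and young points do not overlap.

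The ELR chemokines that draw neutrophils through CXCR2 were not uniform. Cxcl1 had 142, 215 and 560 FPKM in the libraries of old mice 1, 2 and 3, against 57.4, 161 and 53.1 FPKM in those of young mice 1, 2 and 3. Only young mouse 2 reached the old range, and the log2 fold change was 1.69 ± 0.63 (limma adjusted p = 0.168). Cxcl3 had another order, with 0.627, 1.66 and 3.33 FPKM in old mice 1, 2 and 3, against 0.194, 21.9 and 40.7 FPKM in young mice 1, 2 and 3. Young mice 2 and 3 were far above the old libraries and young mouse 1 below them, which gave -1.98 ± 1.26 (limma adjusted p = 0.381). Without young mouse 1, Cxcl3 fell by 3.54 on the log2 scale in old mice (limma adjusted p = 0.0281), and against young mouse 1 alone its log2 fold change was 1.15. Cxcl5 had 13.1, 18.2 and 37.6 FPKM in the libraries of old mice 1, 2 and 3, against 1.85, 109 and 16.96 FPKM in those of young mice 1, 2 and 3, with young mouse 2 the highest (log2 fold change 0.30 ± 1.22, limma adjusted p = 0.907). Cxcl15, the lung ELR chemokine, was under the filter with 19 fragments in all.

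Cxcl1 and Cxcl3 lie in the same stretch of chromosome 5, with Cxcl15 between them, and are shown with Cxcl10 because their start regions hold the same core motif although their levels had different orders over the libraries. The RefSeq windows (GRCm38.p6, 250 bases before to 50 after the start) were available for 35 of the 46 members and were searched on both strands for 6 motifs. Only matches of the NF-kB motif, a short palindrome-like core searched with a free middle pair of bases, are in capitals. Cxcl1 is chr5:90890995-90891294 and Cxcl3 is chr5:90785851-90786150, both on the plus strand, and Cxcl10 is chr5:92348840-92349139 on the minus strand.
Cxcl1: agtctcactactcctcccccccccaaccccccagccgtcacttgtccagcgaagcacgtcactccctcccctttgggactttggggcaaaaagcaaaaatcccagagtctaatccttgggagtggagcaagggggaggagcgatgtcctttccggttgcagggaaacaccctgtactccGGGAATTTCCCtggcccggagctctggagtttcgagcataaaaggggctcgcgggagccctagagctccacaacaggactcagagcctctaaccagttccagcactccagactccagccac
Cxcl3: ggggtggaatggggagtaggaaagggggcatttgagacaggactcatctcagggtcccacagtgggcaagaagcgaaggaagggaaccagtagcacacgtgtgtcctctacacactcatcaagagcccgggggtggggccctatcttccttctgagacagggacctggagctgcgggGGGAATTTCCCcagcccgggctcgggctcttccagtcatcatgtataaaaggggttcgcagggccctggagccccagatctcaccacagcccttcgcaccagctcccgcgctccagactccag
Cxcl10: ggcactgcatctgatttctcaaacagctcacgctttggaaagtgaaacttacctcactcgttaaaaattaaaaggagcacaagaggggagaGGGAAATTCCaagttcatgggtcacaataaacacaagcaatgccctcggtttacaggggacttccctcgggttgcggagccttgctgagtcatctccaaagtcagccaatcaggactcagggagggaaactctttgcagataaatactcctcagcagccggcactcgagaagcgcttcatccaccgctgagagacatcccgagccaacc
The match GGGAATTTCC begins at position -71 from the start in Cxcl1 and at -73 in Cxcl3, each overlapping a second match on the other strand, and GGGAAATTCC begins at -159 in Cxcl10. The motif was found in 5 of 39 windows of members (Cxcl1, Cxcl3, Cxcl10, Ccl1 and Ccr3) and in 1.47% of all 32851 windows. The others were found in 6 member windows for AP-1 (7.81% of all windows), 8 for GATA (11.2%), 10 for the TATA box (13.6%), 1 for STAT (6.95%) and 0 for CRE (1.79%). NF-kB is shown because it matched in 3 tested CXC ligands, a choice made after the matches were seen. A match in these letters is a description of the sequence and shows no binding. Nfkbia, the NF-kB inhibitor that is itself an NF-kB target and was picked after its values were seen, had 1019 to 1344 FPKM across the old libraries and 720 to 1175 FPKM across the young ones and did not pass (log2 fold change 0.39 ± 0.29, limma adjusted p = 0.44).

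Cxcl10, an interferon-induced ligand of CXCR3, had 86.05, 40.1 and 102 FPKM in the libraries of old mice 1, 2 and 3, against 56.6, 10.7 and 30.5 FPKM in those of young mice 1, 2 and 3. Young mouse 1 was the highest young library here, above old mouse 2, and the gene did not pass (log2 fold change 1.37 ± 0.63, limma adjusted p = 0.248). Its exons overlap those of Art3 on the opposite strand, and since no source used here gives the handling of strand, reads of the pair cannot be told apart. Cxcl11 was under the filter, with 0.219 to 1.25 FPKM across the old libraries and 0 to 0.833 FPKM across the young ones. The receptor Cxcr3, found on T and natural killer cells, had 0.306, 7.61 and 1.42 FPKM in the libraries of old mice 1, 2 and 3, against 0.0652, 0.335 and 1.55 FPKM in those of young mice 1, 2 and 3. It was highest in old mouse 2, where 6 T and natural killer cell markers summed to 1768 FPKM, of which Gzma made up 1385 FPKM, against 84.4 to 274 FPKM in the other old and 4.62 to 72.2 FPKM in young libraries, and the part of these cells was not tested.

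Of the homeostatic CXC ligands, none passed. Cxcl12, the stromal ligand of CXCR4 and ACKR3, had 17.8, 71.5 and 53.2 FPKM in the libraries of old mice 1, 2 and 3, against 8.71, 35.2 and 9.87 FPKM in those of young mice 1, 2 and 3. Young mouse 2 lay inside the old range and the other young libraries below it (log2 fold change 1.43 ± 0.67, limma adjusted p = 0.259). Cxcl13, the B cell attractant acting on CXCR5, had 40.5, 61.2 and 36.6 FPKM in the libraries of old mice 1, 2 and 3, against 1.03, 292 and 39.2 FPKM in those of young mice 1, 2 and 3. The old libraries were close together while the young libraries held both extremes (log2 fold change 0.67 ± 1.61, limma adjusted p = 0.835). Cxcl14 had 4.07, 28.5 and 4.16 FPKM in the libraries of old mice 1, 2 and 3, against 1.36, 6.11 and 8.69 FPKM in those of young mice 1, 2 and 3, with old mouse 2 the highest (log2 fold change 0.75 ± 0.82, limma adjusted p = 0.61).

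The ligands made as membrane proteins, Cxcl16 and Cx3cl1, differed little in their means. Cxcl16, the CXCR6 ligand, had 56.5, 75.0 and 59.1 FPKM in the libraries of old mice 1, 2 and 3, against 93.2, 32.5 and 73.5 FPKM in those of young mice 1, 2 and 3. The old libraries lay inside the young range, and the log2 fold change was 0.05 ± 0.41 (limma adjusted p = 0.953). Its exons overlap Zmynd15 on the opposite strand. Cx3cl1, or fractalkine, the ligand of CX3CR1, had 2.35 to 9.55 FPKM across the old libraries and 1.85 to 6.88 FPKM across the young ones. Cxcl17, a mucosal chemokine, had 1.79, 2.54 and 1.83 FPKM in the libraries of old mice 1, 2 and 3, against 0.667, 1.10 and 1.23 FPKM in those of young mice 1, 2 and 3. Its groups did not overlap, yet it rested on 101 fragments and did not pass (log2 fold change 0.61 ± 0.25, limma adjusted p = 0.206).

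Among ligands of lymphoid tissue and barriers, Ccl21a, which guides CCR7-bearing cells into lymphatic vessels, had the highest level. It had 53.2, 194 and 47.0 FPKM in the libraries of old mice 1, 2 and 3, against 138, 333 and 639 FPKM in those of young mice 1, 2 and 3. Old mouse 2 lay above young mouse 1 and the other old libraries below all young ones (log2 fold change -1.96 ± 0.72, limma adjusted p = 0.168). Mice carry near-identical Ccl21 copies, so this value is uncertain, and the same holds for Ccl27a (2.32 to 4.66 FPKM across old, 0.783 to 2.68 FPKM across young libraries) and the pseudogene Ccl19-ps1. This pseudogene had 1.85, 29.3 and 2.22 FPKM in the libraries of old mice 1, 2 and 3, against 0.345, 2.364 and 6.98 FPKM in those of young mice 1, 2 and 3, with old mouse 2 far above the rest. Ccl20, the CCR6 ligand, had 18.6, 16.9 and 11.6 FPKM in the libraries of old mice 1, 2 and 3, against 1.67, 17.05 and 7.84 FPKM in those of young mice 1, 2 and 3, and overlapped between groups (log2 fold change 1.13 ± 0.66, limma adjusted p = 0.344). Ccl25, the CCR9 ligand, had 0.650 to 2.81 FPKM across the old libraries and 0.407 to 0.703 FPKM across the young ones. On the opposite strand, exons of Ccl25 overlap those of Elavl1, and exons of Ccl27a overlap those of Il11ra1.

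Ackr1 was the receptor that fell. This atypical receptor of venules binds many inflammatory chemokines of both CC and CXC classes. It had 0.700, 4.75 and 1.23 FPKM in the libraries of old mice 1, 2 and 3, against 63.8, 45.9 and 79.1 FPKM in those of young mice 1, 2 and 3. All young libraries were above all old ones by a wide margin, and the neutrophil-rich young mice 2 and 3 lay on either side of young mouse 1. Ackr1 was the highest receptor in every young library, whereas the highest receptor in old mice 1, 2 and 3 was Ccr2, Ccr6 and Ccr1 in turn. It fell by 4.48 ± 0.48 on the log2 scale (SE, limma adjusted p = 0.00744). The call held in 16 of 17 alternatives and ended with young mouse 1 as the only young library (adjusted p = 0.0724). The endothelial markers moved with it, with a median log2 fold change of -3.04, and their part in the result was not tested. Ackr1 spans 173331886 to 173333750 on chromosome 1 and its exons overlap those of Cadm3 on the same strand in GENCODE M21.

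Ackr2, a scavenger of CC chemokines on lymphatic endothelium, was also lower in every old library, at 0.299, 2.49 and 1.30 FPKM in old mice 1, 2 and 3, against 21.6, 2.73 and 6.70 FPKM in young mice 1, 2 and 3. Old mouse 2 and young mouse 2 were nearly equal, and the gene did not pass (log2 fold change -1.99 ± 0.68, limma adjusted p = 0.146). Young mouse 1 also had the highest sum of 5 lymphatic endothelial markers, at 299 FPKM, against 71.3 and 135 FPKM in young mice 2 and 3, while old libraries had 22.6 to 61.6 FPKM. Lyve1 made up 252 FPKM of the sum in young mouse 1, and Flt4 was also highest there at 38.4 FPKM. Prox1 and Mmrn1 were highest in young mouse 3, at 1.78 and 14.6 FPKM, and Pdpn was lowest in young mouse 1, at 1.58 FPKM. Of the 4 tested genes of that list 1 (Pdpn, also expressed outside lymphatic vessels) was called higher and 0 lower, against 2.94% and 2.02% of all genes. The part of the list in the Ackr2 values was not tested. Ackr3, the atypical receptor for CXCL12, had 6.39, 14.5 and 12.2 FPKM in the libraries of old mice 1, 2 and 3, against 10.95, 20.5 and 6.99 FPKM in those of young mice 1, 2 and 3. The groups overlapped, with a log2 fold change of -0.15 ± 0.44 (limma adjusted p = 0.875).

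**Figure D4:**
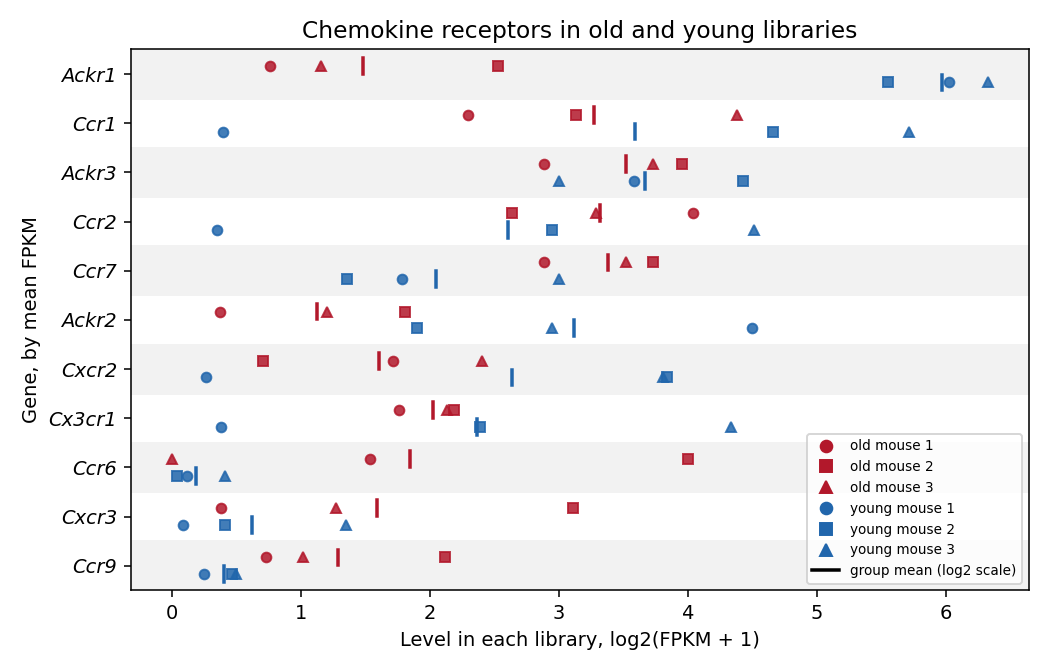
Level of each of the 11 tested receptors on log2(FPKM + 1) in the 3 old (red) and 3 young (blue) libraries, with 1 symbol shape per mouse number and a bar at each group mean. Ackr1 is separated between the groups, while Ccr1, Ccr2, Cxcr2 and Cx3cr1 have young mouse 1 (blue circle) lowest and young mouse 2 or 3 highest.

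The receptors of myeloid cells had both their lowest and their highest level among the young libraries. Ccr1 had 3.90, 7.76 and 19.8 FPKM in the libraries of old mice 1, 2 and 3, against 0.319, 24.2 and 51.3 FPKM in those of young mice 1, 2 and 3. Ccr2, the receptor of inflammatory monocytes, had 15.5, 5.22 and 8.76 FPKM in the libraries of old mice 1, 2 and 3, against 0.274, 6.72 and 21.8 FPKM in those of young mice 1, 2 and 3. Cxcr2, the neutrophil receptor for ELR chemokines, had 2.28, 0.634 and 4.28 FPKM in the libraries of old mice 1, 2 and 3, against 0.204, 13.3 and 13.0 FPKM in those of young mice 1, 2 and 3. For each, young mouse 1 was the lowest library and a neutrophil-rich young library the highest. Cx3cr1, found on monocytes and macrophages, had 2.38, 3.55 and 3.40 FPKM in the libraries of old mice 1, 2 and 3, against 0.302, 4.24 and 19.1 FPKM in those of young mice 1, 2 and 3, in the same pattern. Their log2 fold changes were -0.32 ± 1.33, 0.72 ± 0.99, -1.03 ± 1.00 and -0.34 ± 0.90, and limma adjusted p ran from 0.565 to 0.908. The neutrophil and macrophage marker sums were likewise lowest in young mouse 1 and highest in young mouse 3, and their part was not tested.

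The receptors of lymphocytes and dendritic cells had higher old means and did not pass. Ccr7, the receptor for CCL19 and CCL21, had 6.39, 12.2 and 10.5 FPKM in the libraries of old mice 1, 2 and 3, against 2.45, 1.56 and 7.02 FPKM in those of young mice 1, 2 and 3. Only young mouse 3 reached the old range, above old mouse 1 (log2 fold change 1.33 ± 0.46, limma adjusted p = 0.15). Ccr6, found on B cells and T helper 17 cells, had 1.90, 15.0 and 0 FPKM in the libraries of old mice 1, 2 and 3, against 0.0835, 0.0318 and 0.331 FPKM in those of young mice 1, 2 and 3. Its old mean came mostly from old mouse 2, with 347 of 412 fragments. The sum of 3 B and plasma cell markers was 1427, 1515 and 3670 FPKM in old mice 1, 2 and 3, against 13.3, 210 and 373 FPKM in young mice 1, 2 and 3. Nearly all of it was Igkc in libraries other than young mouse 1. Limma called 0 of 3 (4.97% of all genes were called), and 2 of 3 had an unadjusted p under 0.05 (23.2% of all genes had one). The part of these cells in the receptor values was not tested. Ccr9, a gut-homing receptor, had 0.658, 3.34 and 1.03 FPKM in the libraries of old mice 1, 2 and 3, against 0.191, 0.383 and 0.413 FPKM in those of young mice 1, 2 and 3. Its groups did not overlap, but the gene did not pass (log2 fold change 0.88 ± 0.40, limma adjusted p = 0.246). Its exons overlap those of Gm17200 on the same strand and those of Slc6a20a and AC165425.1 on the opposite strand. Its implied length of 4715 bases differs from 10260 in GENCODE M21.

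The 7 receptors under the filter were Ccr1l1, Ccr3, Ccr4, Ccr8, Ccr10, Cxcr1 and Xcr1, each with a mean under 1 FPKM over the 6 libraries. Cxcr1 was at 0 in all old libraries and in young mouse 1, with 16 fragments in young mice 2 and 3 together. Ccr8, the receptor for CCL1 and mouse CCL8, had 2.55, 0.684 and 0 FPKM in the libraries of old mice 1, 2 and 3, against 0, 0.223 and 0.290 FPKM in those of young mice 1, 2 and 3. These receptors were not tested, and the one with the fewest fragments, Ccr1l1, had 7 in all. The ligands under the filter were Ccl1, Ccl22, Cxcl11 and Cxcl15.

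Of a list of 36 genes that signal downstream of chemokine receptors, 27 were kept and 26 were tested. For these 26 (G protein subunits, arrestins, receptor kinases, RGS proteins, phosphoinositide 3-kinase gamma and Rac regulators), limma called 0 in either direction (4.97% of all genes were called) and 9 had an unadjusted p under 0.05 (23.2% of all genes had one), with a median log2 fold change of -0.28. The highest means over all 6 libraries were those of Rgs2, a regulator of G proteins, with 140 to 207.5 FPKM across the old libraries and 37.8 to 139.5 FPKM across the young ones, and the GTPase Rac1, with 71.6 to 92.3 FPKM across the old libraries and 122 to 164 FPKM across the young ones. In young mice Rac1 had the higher mean of the pair. Rac1 did not overlap between the groups and did not pass (log2 fold change -0.72 ± 0.24, limma adjusted p = 0.138). In the list of enzymes and proteoglycans that trim or present chemokines, 1 of 7 was called higher and 0 lower. Over all genes, 2.94% were called higher and 2.02% lower. At an unadjusted p under 0.05 by limma there were 3 of 7, against 23.2% of all genes. The called gene was Mmp2, a gelatinase that can cleave CXCL12. It had 78.0 to 162 FPKM across the old libraries and 3.88 to 5.85 FPKM across the young ones (log2 fold change 4.36 ± 0.33, limma adjusted p = 0.00296). Mmp2 is also a gene of fibroblasts, whose markers moved with it. Of 4 tested family members outside the symbol rule, limma called 0 (4.97% of all genes were called). At an unadjusted p under 0.05 there were 0 of 4, against 23.2% of all genes. Among them the platelet chemokine Pf4 had 132 to 271 FPKM across the old libraries and 47.6 to 681 FPKM across the young ones. Ppbp had 14.2 to 82.6 FPKM across the old libraries and 28.1 to 189 FPKM across the young ones.

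Known pairs of ligand and receptor could be set side by side in the same libraries. Ccr7 averaged 9.70 ± 2.99 FPKM across old mice and 3.68 ± 2.93 FPKM across young mice, while its ligand Ccl21a averaged 98.2 ± 83.3 FPKM across old mice and 370 ± 252 FPKM across young mice (SD, n = 3 each), so their means were ordered in opposite ways. The CXCR2 ligand Cxcl1 averaged 306 ± 223 FPKM across old mice and 90.6 ± 61.2 FPKM across young mice, while Cxcr2 averaged 2.40 ± 1.83 FPKM across old mice and 8.83 ± 7.47 FPKM across young mice (SD, n = 3 each). The other tested CXCR2 ligands had lower old FPKM means, as Cxcr2 had. Cxcl3 averaged 1.87 FPKM across old and 20.9 FPKM across young mice. Cxcl5 averaged 23.0 FPKM across old and 42.6 FPKM across young mice, although its log2 fold change was 0.30. Log2 fold changes had the same sign for Ccl20 (1.13) and Ccr6 (1.66) and for Ccl25 (0.61) and Ccr9 (0.88). The same held for Cxcl10 (1.37) with Cxcr3 (0.97) and Ccl7 (1.76) with Ccr2 (0.72). Signs were opposite for Cxcl12 (1.43) and Ackr3 (-0.15) and for Cx3cl1 (0.38) and Cx3cr1 (-0.34). They were also opposite for Ccl3 (2.22), Ccl6 (0.03) and Ccl9 (1.19) against Ccr1 (-0.32). The CCR1 ligands Ccl3, Ccl6 and Ccl9 and Ccr1 itself all had young mouse 1 as the lowest library. This was not particular to them, since it held for 68.6% of the 35 members tested. None of these genes passed the test, so the directions are descriptions of these libraries.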

How the data were processed

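RNA of 6 libraries was sequenced, and the authors deposited FPKM values, 1 table per library. The submitters' processing notes list CASAVA 1.7, Bowtie 0.12.2 and build mm8 without roles; no source used here gives the counter, annotation or strand. Of 24720 rows per table, 3880 had altered identifiers and 593 had no symbol. Further rows had an unreadable value, among them those of Ccl5, Cxcl9, Xcl1 and Ackr4. This left 19097 rows with a known identifier and 6 readable values. A row was kept where 1 gene length made its values whole fragments in all 6 libraries (tolerance 1e-06 fragments plus a relative 3e-13); 19069 rows were kept, 27 failed this check and no value was repaired. For 78.82% of kept rows, and 33 of 46 members, that length equalled GENCODE M21 (GRCm38), whose coordinates are printed.

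Genes with a mean of at least 1 FPKM were tested on log2(FPKM + 1), which understates changes of low genes, with limma 3.58.1 in R 4.3.3 (two-sided, eBayes trend, Benjamini-Hochberg over all genes, old minus young), after a test on simulated data. The p-values reflect the spread between individual mice. Members, lists and settings were chosen with earlier results of these data known. Values in every library are given for members called, with a mean of at least 5 FPKM, or with groups that do not overlap. Genes fitting the symbol rule but not analysed here included Ccl2, Ccl5, Ccl12, Ccl19, Ccl19-ps3, Ccl21b, Ccl26, Ccl27b, Ccl28, Cxcl2, Cxcl9, Xcl1, Ackr4, Cxcr4, Cxcr5 and Cxcr6.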

Additional observations from a re-analysis of the deposited data

How the results depend on the processing

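The count of genes called was 498 and became 323 with a pseudocount of 0.01, 223 without a filter, 292 with a filter at a mean of 5 FPKM, 126 with a replicate block on the mouse number and 0 with young mouse 1 as the only young library (2295 of 10030 genes then had an unadjusted p under 0.05 by limma, with the lone young library assumed to vary like the old ones). The count of genes called was higher in other settings. It was 688 with array weights, 526 with upper quartile scaling, 514 without a variance trend and 500 with median ratio scaling. Leaving out 1 library gave 84 to 403, the lowest without old mouse 3. The count of ligands called was 1 and became 0 with pseudocounts of 0.1 and 0.01, without a filter, with upper quartile scaling and with young mouse 1 alone, and was 0 to 1 over the fits that left out 1 library, where without young mouse 1 the ligand called was Cxcl3 and not Ccl11. The count of receptors called was 1, Ackr1, and became 0 with young mouse 1 alone. The mouse number did not pair the libraries (correlations of deviations -0.0941, -0.00305 and 0.0101), and under the replicate block both Ccl11 (adjusted p = 0.0214) and Ackr1 (adjusted p = 0.037) were called.

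Of 587 values of 35 members under 17 alternatives, 546 kept direction and side of the threshold and 29 reversed, all of members that were not called. With a pseudocount of 0.1 Ccr1 was at 0.09, and with 0.01 Ccr1 was at 0.19 and Cx3cr1 at 0.07. With array weights Ccl6 was at -0.59, Cxcl13 at -0.82 and Cxcl5 at -0.67. Against young mouse 1 alone Ccr1 was at 2.87, Cx3cr1 at 1.65, Cxcl16 at -0.56, Cxcl3 at 1.15 and Cxcr2 at 1.34. Over the fits that left out 1 library, the ranges were -0.48 to 0.23 for Ackr3, -0.13 to 1.62 for Ccl19-ps1, -1.78 to 1.26 for Ccl6, -0.56 to 2.39 for Ccl9, -1.91 to 0.74 for Ccr1, -0.41 to 1.67 for Ccr2, -0.11 to 0.85 for Cx3cl1, -1.33 to 0.64 for Cx3cr1, -1.24 to 2.35 for Cxcl13, -0.09 to 1.18 for Cxcl14, -0.39 to 0.36 for Cxcl16 and -1.02 to 1.61 for Cxcl5. The cause of these changes was not tested.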
